A study of Saccharomyces cerevisiae with 18 samples.

Results

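The 5 genes described here encode the Ppz protein phosphatases of budding yeast, their inhibitors and a relative of the inhibitors. They are PPZ1 and PPZ2, the catalytic subunits, SIS2 (also called HAL3) and VHS3, their inhibitory subunits, and CAB3, a relative of the inhibitors that works with them in another enzyme. They were chosen by name and make up 5 of the 6692 gene rows in the count tables, and all 5 passed the filter on low counts that left 5658 genes. RNA came from wild type BY4741 and from ZCZ01, a BY4741 derivative in which the GAL1-10 promoter drives PPZ1. Both strains were grown on raffinose, received galactose to a final 2%, and were sampled 0.5, 2 and 4 h later in 3 experiments, giving 18 QuantSeq libraries, which hold reads from the 3′ end of transcripts. No change at PPZ2, SIS2, VHS3 or CAB3 is given for ZCZ01, and galactose was added to both strains, so the comparison at each time is between strains under the same sugar.

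Ppz1 and Ppz2 are Ser/Thr phosphatases of the PPP family and are found only in fungi. Their activity is kept low by Hal3, the main inhibitor, and to a lesser degree by its paralog Vhs3. Ppz1 takes part in potassium and sodium homeostasis, and cells tolerate little excess of it. Hal3, Vhs3 and Cab3 are also the parts of phosphopantothenoylcysteine decarboxylase, an enzyme of coenzyme A synthesis, so the inhibitors of the phosphatase serve a second, metabolic role.

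In the R64 genome PPZ1 (YML016C) lies on chromosome XIII from 239458 to 241536, PPZ2 (YDR436W) on chromosome IV from 1334821 to 1336953, SIS2 (YKR072C) on chromosome XI from 576435 to 578123, VHS3 (YOR054C) on chromosome XV from 427833 to 429857 and CAB3 (YKL088W) on chromosome XI from 275283 to 276998. Reads were counted over the gene and 100 nt downstream of it. Because the catalytic subunits are paralogs, as are the inhibitors, the sequences near the 3′ ends decide whether reads of one can be told from reads of the other. The coding sequences of PPZ1 and PPZ2 were identical at 73.5% of 1888 aligned bases. The stretch below comes from near their stop codons (PPZ1 at chromosome XIII, 239514 to 239582, minus strand, and PPZ2 at chromosome IV, 1336880 to 1336948, plus strand), and capitals mark the 16 of 69 bases that differ:
PPZ1: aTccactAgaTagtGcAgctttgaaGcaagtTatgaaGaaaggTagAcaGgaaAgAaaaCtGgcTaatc
PPZ2: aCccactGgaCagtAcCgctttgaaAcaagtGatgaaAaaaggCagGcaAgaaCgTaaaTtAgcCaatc
The longest run that PPZ1 and PPZ2 shared was 20 nt, and within the last 500 nt of the counted region it was 14 nt, shorter than a read.

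SIS2 and VHS3 were identical at 73.1% of 1560 aligned coding bases, but they share a longer run of GAC and GAT triplets, codons of aspartate. It is shown here because it lies where 3′ reads fall, starting 202 nt from the end of the counted region of SIS2. In the windows below (SIS2 at chromosome XI, 576482 to 576541, and VHS3 at chromosome XV, 427952 to 428011, both minus strand) capitals mark the shared 50 nt:
SIS2: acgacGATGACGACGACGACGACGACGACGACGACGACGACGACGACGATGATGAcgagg
VHS3: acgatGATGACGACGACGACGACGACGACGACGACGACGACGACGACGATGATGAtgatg
This run, too, is shorter than a full-length read, which would reach bases that differ between the genes. The longest run that CAB3 shared with SIS2 was 17 nt and with VHS3 14 nt. The counted region of VHS3 also overlaps the reading frames YOR053W (2 to 26 reads per library) and YOR055W (0 to 5) on the opposite strand, against 140 to 508 reads for VHS3 itself. The counted region of SIS2 shares 37 nt with YKR073C on the same strand (0 to 15 reads, against 70 to 316 for SIS2), and that of CAB3 shares 10 nt with CYT2 on the opposite strand.

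Libraries held 955972 to 1920193 counted reads (median 1647535). For 12 of the 18 libraries the sample title gives another time than the library name, and the library names were used. Experiments 2 and 3 were closely alike. A comparison of their counts for the same strain and time gave a chi-square of 1.12 to 2.6 per degree of freedom, whereas each of them against experiment 1 gave 20.8 to 44.6, and experiment 3 held 1.32 to 1.34 times the reads of experiment 2 throughout. They differed by more than sampling noise and were kept as separate replicates, so p values can be too small, and each call was also computed with their counts summed. Of the marker genes mutated in BY4741, MET17 had 0 reads in every library, LEU2 0 or 1 and URA3 0 to 27, whereas HIS3, which is only partly deleted in this background, had 29 to 139 in wild type and 62 to 286 in ZCZ01. The a-factor gene MFA1 held 569 to 11170 reads against 0 to 35 for the alpha-factor gene MF(ALPHA)1. MFA1 was higher in ZCZ01 at 2 h (log2 fold change 2.21) and 4 h (2.41), as were HIS3 (1.32 and 0.61) and MFA2 (1.36 and 0.46). With experiments 2 and 3 summed, the calls of HIS3 (0.66) and MFA2 (0.51) at 4 h were lost. STE2 was higher at 2 h (0.71). The alpha-cell receptor gene STE3, with 0 to 6 reads in wild type and 1 to 48 in ZCZ01, was also higher (2.67 and 3.41). MF(ALPHA)1 held 0 to 2 reads in wild type, and 5 to 35 and 6 to 25 in ZCZ01 at 2 and 4 h. URA3 was lower at 2 h (-3.43). The part of these genes in the results below was not tested.

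PPZ1, the gene placed under the GAL1-10 promoter, was higher in ZCZ01 than in wild type at every time without overlap, but its course over time was not the same in the 3 experiments. In wild type it had few reads, 7 to 17 per library. Levels are given as CPM, reads per 1000000 counted reads after TMM scaling, and are shares of each library, so fewer cells with a transcript and less of it per cell cannot be told apart. Wild type PPZ1 was at 8.76, 7.03 and 4.59 CPM in experiments 1, 2 and 3 at 0.5 h, at 10.7, 6.26 and 6.47 CPM at 2 h, and at 10.0, 8.49 and 4.91 CPM at 4 h. In ZCZ01 it was at 508, 131 and 131 CPM at 0.5 h, at 89.5, 394 and 458 CPM at 2 h, and at 21.0, 96.5 and 89.1 CPM at 4 h. Among all genes, 11.5% lay higher in ZCZ01 without overlap at 0.5 h, 20.5% at 2 h and 19.2% at 4 h. Experiment 1 was highest at 0.5 h and fell at each later time, whereas experiments 2 and 3 were highest at 2 h.

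**Figure D1:**
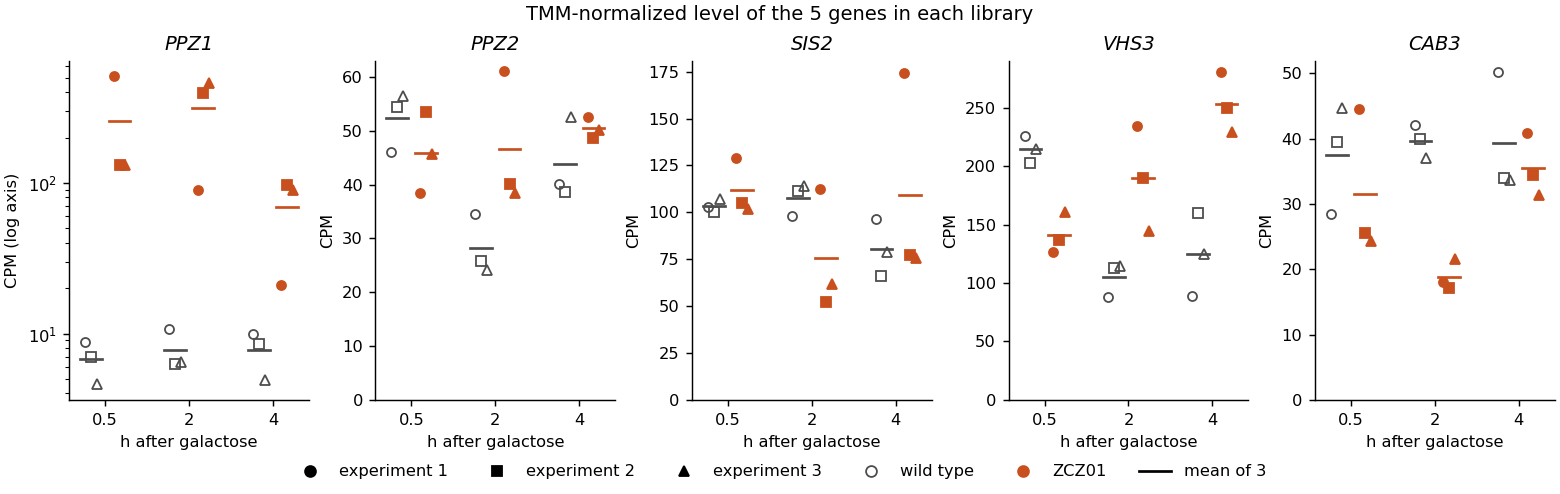
Levels of the 5 genes in each library (y axis, TMM-normalized CPM, on a log axis for PPZ1 only) against hours after galactose, with open symbols for wild type, filled symbols for ZCZ01, symbol shapes for the 3 experiments and a line at the mean of 3. PPZ1 lies between 21.0 and 508 CPM in ZCZ01 and between 4.59 and 10.7 CPM in wild type, and VHS3 changes from lower to higher in ZCZ01 between 0.5 and 2 h.

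In the fit across all genes (edgeR, quasi-likelihood test, p values adjusted by Benjamini-Hochberg), PPZ1 rose in ZCZ01 at each time. The log2 fold change was 5.17 at 0.5 h (standard error 0.56, 36.0-fold, adjusted p = 5.4e-04), 5.08 at 2 h (standard error 0.53, 33.9-fold, adjusted p = 7.3e-06) and 2.89 at 4 h (standard error 0.56, 7.4-fold, adjusted p = 0.00114). Within single experiments the ratio of ZCZ01 to wild type ran from 18.7 to 58.0 at 0.5 h, from 8.37 to 70.8 at 2 h and from 2.09 to 18.2 at 4 h, with experiment 1 highest at 0.5 h and lowest at both later times. The change at 2 h did not differ detectably from that at 0.5 h (difference of the log2 fold changes -0.09, 95% interval -1.88 to 1.70, adjusted p = 0.947). Without experiment 1 this difference was 1.58 (adjusted p = 0.0139). The change at 4 h was lower than at 2 h by 2.2 on the log2 scale with an interval of -4.04 to -0.35, and this did not pass over all genes (adjusted p = 0.105).

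Within ZCZ01, PPZ1 fell from 2 to 4 h in all 3 experiments (log2 change -2.19, standard error 0.60, adjusted p = 0.0367) and from 0.5 to 4 h (-1.93, standard error 0.64, adjusted p = 0.0236). The fall from 2 to 4 h did not pass without experiment 2 or 3, without a block for the experiment, or with experiments 2 and 3 summed, and in these fits its adjusted p ran up to 0.323. The fall from 0.5 to 4 h passed in all 10 alternatives run for it, but without experiment 1 its log2 change was only -0.46. In wild type no change of PPZ1 over time passed, and the log2 changes were between 0.00 and 0.19 with standard errors of 1.02 to 1.04. At this depth the 95% interval of the change from 2 to 4 h ran from -2.15 to 2.15.

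**Figure D2:**
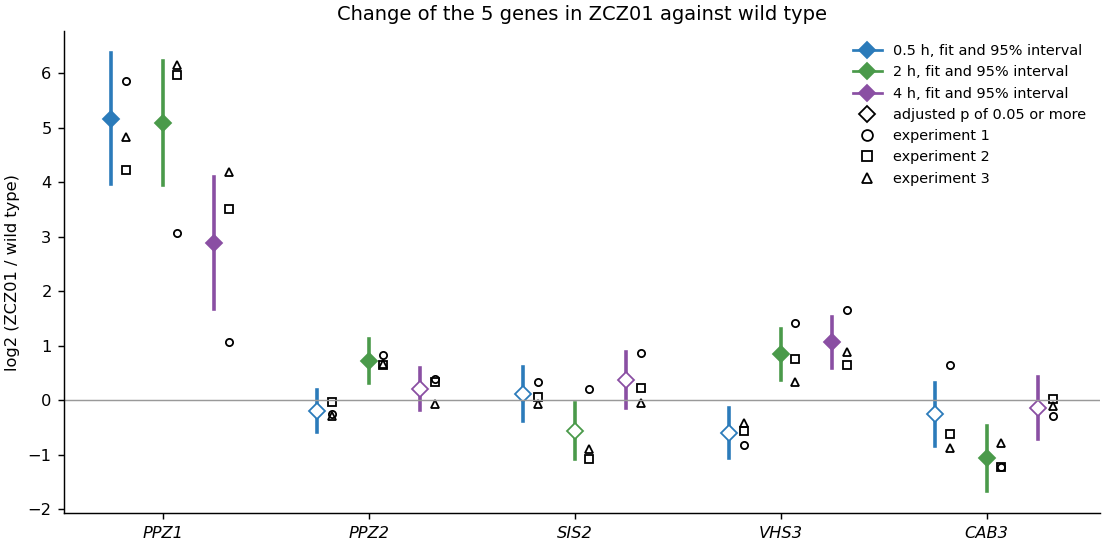
Log2 ratio of ZCZ01 to wild type (y axis) for the 5 genes at 0.5, 2 and 4 h, with diamonds for the fitted change, lines for its 95% interval, open diamonds for an adjusted p of 0.05 or more, and small symbols for the ratio in each experiment. PPZ1 stands at 5.17, 5.08 and 2.89, and the other 4 genes lie between -1.07 and 1.06.

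PPZ1 was set beside GAL1 and GAL10, the genes that the same divergent promoter drives at its own site, encoding galactokinase and the epimerase of galactose breakdown. GAL1 and GAL10 lie back to back on chromosome II, and Gal4, their activator, binds sequences of the form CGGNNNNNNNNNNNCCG between them. The 84 nt below (chromosome II, 278553 to 278636, plus strand) are shown because they hold all 3 matches to that form between the genes, at 453, 434 and 416 nt from the start codon of GAL1 and with no overlap, with the CGG and CCG of each in capitals:
GAL1-GAL10 intergenic: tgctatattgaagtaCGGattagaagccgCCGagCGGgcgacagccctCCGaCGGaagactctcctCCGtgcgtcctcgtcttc
The form reads the same on both strands, and it occurred in the 668 nt before the start codon of 239 of 5999 genes (3.98%) and of 0 of the 5 genes described here at their native sites. The promoter fragment that drives PPZ1 in ZCZ01 was not analysed here.

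GAL1 and PPZ1 did not follow the same course in ZCZ01. GAL1 was at 8082, 10669.5 and 10720.0 CPM at 0.5 h in experiments 1, 2 and 3, at 8164, 6090.5 and 6370.3 CPM at 2 h, and at 3464, 2439 and 2483 CPM at 4 h. From 0.5 to 2 h it stayed level in experiment 1, where PPZ1 fell, and it fell in experiments 2 and 3, where PPZ1 rose. From 2 to 4 h both fell in every experiment. Per 1000 GAL1 reads, ZCZ01 held 62.9, 12.3 and 12.2 PPZ1 reads at 0.5 h, 11, 64.6 and 71.9 at 2 h, and 6.06, 39.6 and 35.9 at 4 h. The pattern was alike per 1000 GAL10 reads, at 91.3, 17.1 and 16.6, then 25.6, 85.6 and 94.0, then 13.6, 43.1 and 37.4. These read ratios are a description, with no test.

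Against wild type, GAL1 in ZCZ01 had a log2 fold change of -0.06 at 0.5 h (adjusted p = 0.805) and -0.13 at 2 h (adjusted p = 0.286), and it was lower by 1.37 at 4 h, a log2 fold change of -1.37 (adjusted p = 1.1e-07). GAL10 was at -0.07 at 0.5 h (adjusted p = 0.784) and lower at 2 h (-0.68, adjusted p = 1.4e-04) and 4 h (-1.68, adjusted p = 3.5e-08). Of 7 galactose genes listed, 0 passed at 0.5 h (0 by DESeq2, and 0 at an unadjusted p under 0.05), where GAL80 (-0.37, adjusted p = 0.292) and GAL4 (-0.51, adjusted p = 0.453) came nearest. Of the 7, 3 were lower at 2 h and 6 at 4 h, against 23.2% and 21.4% of all genes, and the median at 4 h was -1.48 on the log2 scale against 0.00 over all genes. The count at 4 h was 5 by DESeq2, with experiments 2 and 3 summed, and without experiment 2 or 3, and the count at 2 h was 2 without experiment 3. GAL4 itself was the gene that did not pass at 4 h (-0.68, adjusted p = 0.137).

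**Figure D3:**
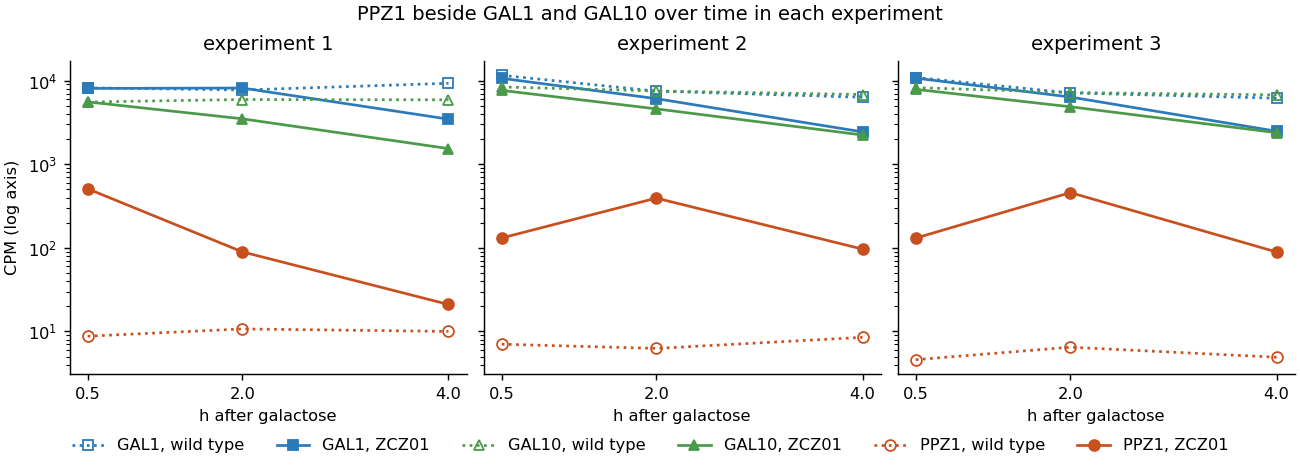
Levels of PPZ1, GAL1 and GAL10 (y axis, TMM-normalized CPM, log axis) against hours after galactose in each of the 3 experiments, with solid lines and filled symbols for ZCZ01 and dotted lines and open symbols for wild type. In ZCZ01, GAL1 falls to 2439 to 3464 CPM at 4 h in each experiment, while PPZ1 peaks at 0.5 h in experiment 1 and at 2 h in experiments 2 and 3.

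PPZ2, the paralog that was left under its own promoter, was higher in ZCZ01 than in wild type at 2 h, when it was low in wild type. Wild type PPZ2 was at 46.0, 54.5 and 56.4 CPM at 0.5 h, at 34.6, 25.8 and 24.1 CPM at 2 h, and at 40.2, 38.7 and 52.6 CPM at 4 h. In ZCZ01 it was at 38.4, 53.5 and 45.7 CPM at 0.5 h, at 61.1, 40.2 and 38.5 CPM at 2 h, and at 52.5, 48.6 and 50.2 CPM at 4 h. At 2 h ZCZ01 lay above wild type without overlap, as did 20.5% of all genes, whereas at 0.5 and 4 h the strains overlapped. The log2 fold change at 2 h was 0.72 (standard error 0.19, 1.64-fold, adjusted p = 0.00771), and it was -0.20 at 0.5 h (adjusted p = 0.609) and 0.21 at 4 h (adjusted p = 0.381).

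The strain effect on PPZ2 was larger at 2 h than at 0.5 h by 0.92 on the log2 scale (standard error 0.26, adjusted p = 0.0161). In wild type PPZ2 fell between these times, with a log2 change of -0.89 (standard error 0.23, adjusted p = 0.0109), whereas in ZCZ01 the change was 0.03 (95% interval -0.44 to 0.49). The order of mean levels ran from wild type at 2 h, 28.2 ± 5.62 CPM (SD, n = 3), to wild type at 0.5 h, 52.3 ± 5.53 CPM (SD, n = 3), and the means of the other 4 groups, 43.8 to 50.4 CPM, differed by less than their largest SD of 12.6. The call at 2 h held with experiments 2 and 3 summed (0.77) but not without experiment 2 (0.78) or experiment 3 (0.78), where the adjusted p reached 0.0703. The difference between 0.5 and 2 h and the fall in wild type did not pass without experiment 2, without experiment 3 or with the pair summed.

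SIS2, which encodes the inhibitor Hal3, passed the test at none of the times, and its experiments disagreed. Wild type SIS2 was at 103, 100.1 and 107 CPM at 0.5 h, at 98.1, 111 and 114 CPM at 2 h, and at 96.3, 66.0 and 78.6 CPM at 4 h. In ZCZ01 it was at 129, 105 and 102 CPM at 0.5 h, at 112, 52.1 and 61.7 CPM at 2 h, and at 174, 77.0 and 75.8 CPM at 4 h. At 2 h experiments 2 and 3 were about 2 times lower in ZCZ01, with ratios to wild type of 0.469 and 0.541, and experiment 1 was not, with a ratio of 1.15. The log2 fold changes were 0.11 (95% interval -0.39 to 0.61, adjusted p = 0.851), -0.57 (-1.08 to -0.05, adjusted p = 0.071) and 0.36 (-0.15 to 0.88, adjusted p = 0.244) at 0.5, 2 and 4 h. Without experiment 1 the value at 2 h was -0.94 and passed (adjusted p = 1.9e-07), in a fit that holds only the closely alike experiments 2 and 3. Mean SIS2 levels ran from 75.4 ± 32.4 CPM (SD, n = 3) in ZCZ01 at 2 h to 112 ± 15.1 CPM (SD, n = 3) in ZCZ01 at 0.5 h. The largest SD was 56.6, in ZCZ01 at 4 h. Wild type at 4 h (80.3 ± 15.2 CPM) and at 0.5 h (103.3 ± 3.4 CPM), neighbours in that order, differed by more than either SD. The other neighbours lay within their spread. No change of SIS2 over time passed in either strain, where the adjusted p ran from 0.0589 to 0.871.

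VHS3, the gene of the other inhibitor, moved in opposite directions in the strains from 0.5 to 4 h. In wild type it fell from 226, 203 and 215 CPM at 0.5 h to 88.0, 113 and 115 CPM at 2 h, and stood at 88.6, 160.3 and 125 CPM at 4 h. In ZCZ01 it was at 127, 136 and 161 CPM at 0.5 h, at 235, 190.4 and 145 CPM at 2 h, and at 280.5, 249.8 and 229.5 CPM at 4 h. ZCZ01 was below wild type in every library at 0.5 h and above it in every library at 2 and 4 h, with no overlap at any time, against 10.0% of genes below at 0.5 h and 20.5% and 19.2% above at 2 and 4 h.

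The log2 fold change of VHS3 was 0.84 at 2 h (standard error 0.22, 1.78-fold, adjusted p = 0.00787) and 1.06 at 4 h (standard error 0.22, 2.08-fold, adjusted p = 0.00165). At 0.5 h it was -0.61 (standard error 0.21, adjusted p = 0.115) and did not pass. The strain effect was larger at 2 h than at 0.5 h by 1.44 (standard error 0.31, adjusted p = 0.00305), a difference that passed in all 11 alternatives run with the library-name times. Over time VHS3 fell in wild type from 0.5 to 2 h (-1.03, adjusted p = 0.002) and from 0.5 to 4 h (-0.80, adjusted p = 0.0185), and rose in ZCZ01 from 0.5 to 4 h (0.84, adjusted p = 0.00434). Its change in ZCZ01 from 0.5 to 2 h did not pass (0.43, adjusted p = 0.127), but it passed with total counts, where the median of all genes was 0.22. From 2 to 4 h neither strain passed (0.23 in wild type, adjusted p = 0.562, and 0.41 in ZCZ01, adjusted p = 0.25). The highest group mean was ZCZ01 at 4 h, 253 ± 25.6 CPM (SD, n = 3), and the lowest wild type at 2 h, 105 ± 14.8 CPM (SD, n = 3). Wild type at 2 h and at 4 h (125 ± 35.8 CPM), and ZCZ01 at 0.5 h (141 ± 17.5 CPM), were neighbours within their spread. The rise in ZCZ01 at 2 h did not pass without experiment 2 (0.90, adjusted p = 0.0516) and passed with experiments 2 and 3 summed (1.00), and the rise in ZCZ01 from 0.5 to 4 h did not pass without experiment 2 (adjusted p = 0.0757). The fall in wild type from 0.5 to 4 h did not pass without experiment 2, without experiment 3 or with the pair summed, where the adjusted p ran up to 0.219.

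CAB3, the partner of Hal3 and Vhs3 in coenzyme A synthesis, was lower in ZCZ01 at 2 h. Wild type CAB3 was at 28.5, 39.5 and 44.6 CPM at 0.5 h, at 42.1, 39.9 and 37.0 CPM at 2 h, and at 50.2, 33.9 and 33.7 CPM at 4 h. In ZCZ01 it was at 44.5, 25.6 and 24.3 CPM at 0.5 h, at 18, 17.1 and 21.5 CPM at 2 h, and at 40.9, 34.4 and 31.3 CPM at 4 h. At 2 h ZCZ01 lay below wild type without overlap, as did 23.6% of all genes. The strains overlapped at 0.5 and 4 h, and at 0.5 h experiment 1 was higher in ZCZ01 while experiments 2 and 3 were lower. The log2 fold change was -1.07 at 2 h (standard error 0.28, adjusted p = 0.00768), against -0.26 at 0.5 h (95% interval -0.84 to 0.32) and -0.14 at 4 h (-0.71 to 0.43). Within ZCZ01 it fell from 0.5 to 2 h (-0.72, adjusted p = 0.0428) and rose from 2 to 4 h (0.90, adjusted p = 0.0482). The differences of the strain effect from 2 h to its neighbours were -0.81 and 0.93, and neither passed (adjusted p = 0.136 and 0.124). Mean levels ran from 18.9 ± 2.32 CPM (SD, n = 3) in ZCZ01 at 2 h to 39.7 ± 2.55 CPM (SD, n = 3) in wild type at 2 h, and the other 4 means, 31.5 to 39.3 CPM, lay within 11.3 CPM, their largest SD. The call at 2 h held with experiments 2 and 3 summed (-1.05) and did not pass without experiment 2 (-0.97), and neither change over time passed with them summed, or without experiment 2 or experiment 3. The fall in ZCZ01 from 0.5 to 2 h was only -0.32 without experiment 1 (adjusted p = 0.343), did not pass with total counts (-0.52, adjusted p = 0.116), DESeq2 or no block either, and passed in 3 of 10 alternatives.

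Across the 5 genes, 1 was called higher in ZCZ01 at 0.5 h (PPZ1), where 4.56% of all genes were, and 0 lower (1 at an unadjusted p under 0.05, VHS3), where 2.3% were. At 2 h 3 were called higher (PPZ1, PPZ2 and VHS3), against 19.1% of all genes, and 1 was called lower (CAB3), against 23.2%. At 4 h 2 were called higher (PPZ1 and VHS3), against 19.9%, and 0 lower, against 21.4%. PPZ1 is in each of these counts of genes called higher, and it is the gene that ZCZ01 was built to raise. The strain effect rose from 0.5 to 2 h for 2 of the 5 (PPZ2 and VHS3), against 12.5% of all genes, and fell for 0, against 18.2%. From 2 to 4 h it rose for 0, against 6.86%, and fell for 0, against 6.88%, while at an unadjusted p under 0.05 it rose for 2 (SIS2 and CAB3) and fell for 1 (PPZ1). In wild type 2 of the 5 fell from 0.5 to 2 h (PPZ2 and VHS3), against 9.4%, and 0 rose, against 11.1%. From 2 to 4 h 0 rose (1 at an unadjusted p under 0.05, PPZ2), against 5.18%, and 0 fell, against 5.76%, and from 0.5 to 4 h 1 fell (VHS3), against 6.4%, and 0 rose, against 7.35%. In ZCZ01 1 fell from 0.5 to 2 h (CAB3), against 19.0%, and 0 rose, against 16.8%. From 2 to 4 h 1 fell (PPZ1), against 3.46%, and 1 rose (CAB3), against 2.63%. From 0.5 to 4 h 1 fell (PPZ1), against 20.1%, and 1 rose (VHS3), against 18.4%. In the other counts of 0 above, by edgeR, 0 passed at an unadjusted p under 0.05, and DESeq2 called 0 in each of these counts of 0.

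Because Hal3 and Vhs3 restrain Ppz1, PPZ1 reads were also set against the summed reads of SIS2 and VHS3 within each library, a ratio that needs no scaling between libraries. Per 100 such reads, wild type held 2.67, 2.32 and 1.43 PPZ1 reads at 0.5 h, 5.74, 2.80 and 2.83 at 2 h, and 5.43, 3.75 and 2.41 at 4 h. ZCZ01 held 199, 54.3 and 49.8 at 0.5 h, 25.8, 162 and 222 at 2 h, and 4.61, 29.5 and 29.2 at 4 h. The strains did not overlap at 0.5 and 2 h, but at 4 h experiment 1 of ZCZ01 lay inside the wild type range. Taken within experiments, the log2 difference at 0.5 h had a mean of 5.30 and an SD of 0.85 (n = 3). For 2 h the mean was 4.77 (SD 2.27), and for 4 h it was 2.11 (SD 2.06). An exact permutation test that ignored the pairing by experiment gave p = 0.10, 0.10 and 0.20, in that order. Its smallest possible p, with 3 libraries against 3, is 0.10. A permutation test that keeps the pairs was not run. At 4 h the ratio in ZCZ01 was 0.849 times that of wild type in experiment 1, 7.88 times in experiment 2 and 12.1 times in experiment 3. These are ratios of reads and do not give amounts of protein.

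**Figure D4:**
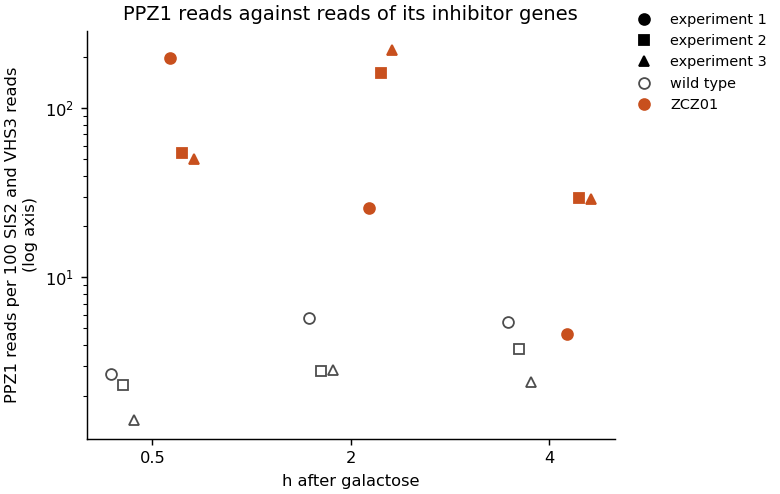
PPZ1 reads per 100 reads of SIS2 and VHS3 together (y axis, log axis) in each library at 0.5, 2 and 4 h, with open symbols for wild type and filled symbols for ZCZ01. The wild type libraries lie between 1.43 and 5.74, and ZCZ01 of experiment 1 falls from 199 at 0.5 h to 4.61 at 4 h.

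None of the other listed genes of coenzyme A synthesis passed the test. The list of 7 holds CAB3, SIS2 and VHS3 together with CAB1 (pantothenate kinase), CAB2, CAB4 and CAB5, which carry out the other steps. Of the 7, 0 passed at 0.5 h (1 at an unadjusted p under 0.05, VHS3, and 0 by DESeq2), 1 rose and 1 fell at 2 h, and 1 rose and 0 fell at 4 h, these being VHS3 and CAB3. Over all genes 4.56% rose and 2.3% fell at 0.5 h, 19.1% rose and 23.2% fell at 2 h, and 19.9% rose and 21.4% fell at 4 h. Among CAB1, CAB2, CAB4 and CAB5 the smallest adjusted p was 0.583 at 0.5 h (CAB5, log2 fold change -0.22), 0.0993 at 2 h (CAB4, -0.64) and 0.0914 at 4 h (CAB5, 0.42), when CAB4 stood at -0.59. The median log2 fold change of the 7 was -0.22, -0.21 and 0.17 at 0.5, 2 and 4 h, against 0.01, -0.05 and 0.00 over all genes.

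Of the genes that supply pantothenate and beta-alanine, the precursors of coenzyme A, some were higher in ZCZ01 at 2 and 4 h. The list of 8 also counts LEU5, a mitochondrial carrier gene tied to coenzyme A itself and not to these precursors. Of 8 genes, 0 passed at 0.5 h (1 by DESeq2, and 2 at an unadjusted p under 0.05), 5 rose and 0 fell at 2 h, and 4 rose and 0 fell at 4 h, where 19.1% and 19.9% of all genes rose, with medians of 1.10 and 0.44 against -0.05 and 0.00 over all genes. ALD3 and ALD2, aldehyde dehydrogenases that make beta-alanine, rose most. ALD3 had log2 fold changes of 4.6 at 2 h (standard error 0.20, adjusted p = 2.5e-09) and 5.48 at 4 h (standard error 0.21, adjusted p = 6.1e-10). ALD2 had 2.33 at 2 h (standard error 0.17, adjusted p = 2.1e-07) and 1.54 at 4 h (standard error 0.16, adjusted p = 6.2e-06). FMS1, the polyamine oxidase at the start of that route, stood at 1.19 (adjusted p = 3.3e-04) and 0.78 (adjusted p = 0.00713), and PAN6, pantothenate synthase, at 1.01 (adjusted p = 0.0013) and 0.98 (adjusted p = 0.00196). FEN2, the pantothenate permease, rose at 2 h (1.42, adjusted p = 0.0127, which was 0.2 without experiment 3) and stood at 0.79 at 0.5 h and 0.11 at 4 h. The difference of its strain effect between 2 and 4 h did not pass (-1.31, adjusted p = 0.136), and ECM31, PAN5 and LEU5 passed at no time. At 0.5 h the smallest adjusted p were those of ALD3 (-0.62, adjusted p = 0.064) and LEU5 (-0.50, adjusted p = 0.249). With experiments 2 and 3 summed the counts at 2 and 4 h were the same, 5 and 4. ALD2 and ALD3 are adjacent paralogs, and how reads shared by both were assigned was not stated.

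Of 10 genes for catalytic subunits of the other PPP phosphatases, 0 passed at 0.5 h (0 by DESeq2, and 0 at an unadjusted p under 0.05), 2 rose and 1 fell at 2 h, and 0 rose and 3 fell at 4 h, with medians of 0.11, -0.22 and -0.27. Over all genes 19.1% rose and 23.2% fell at 2 h, and 19.9% rose and 21.4% fell at 4 h, so 2 or 3 of 10 is close to the share over all genes. PPT1, the yeast relative of mammalian PP5, was lower at 2 h (-1.33, standard error 0.28, adjusted p = 0.00183) and 4 h (-0.91, standard error 0.28, adjusted p = 0.0199). PPH21, a PP2A catalytic subunit, rose at 2 h (0.54, adjusted p = 0.0103), as did CMP2, a calcineurin catalytic subunit (0.52, adjusted p = 0.0246). PPH3, of the PP4 type, fell at 4 h (-0.93, adjusted p = 0.0151), as did PPH22, the other PP2A subunit (-0.90, adjusted p = 0.0455). GLC7, the essential PP1 catalytic subunit, was at 0.26, -0.23 and 0.25 with adjusted p of 0.82, 0.691 and 0.665. At 0.5 h the smallest adjusted p belonged to PPT1 (0.61, adjusted p = 0.271) and PPG1 (-0.40, adjusted p = 0.312). With experiments 2 and 3 summed, 0 rose and 1 fell at 2 h, and 0 rose and 1 fell at 4 h, and PPT1 was the gene that passed at both times.

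**Figure D5:**
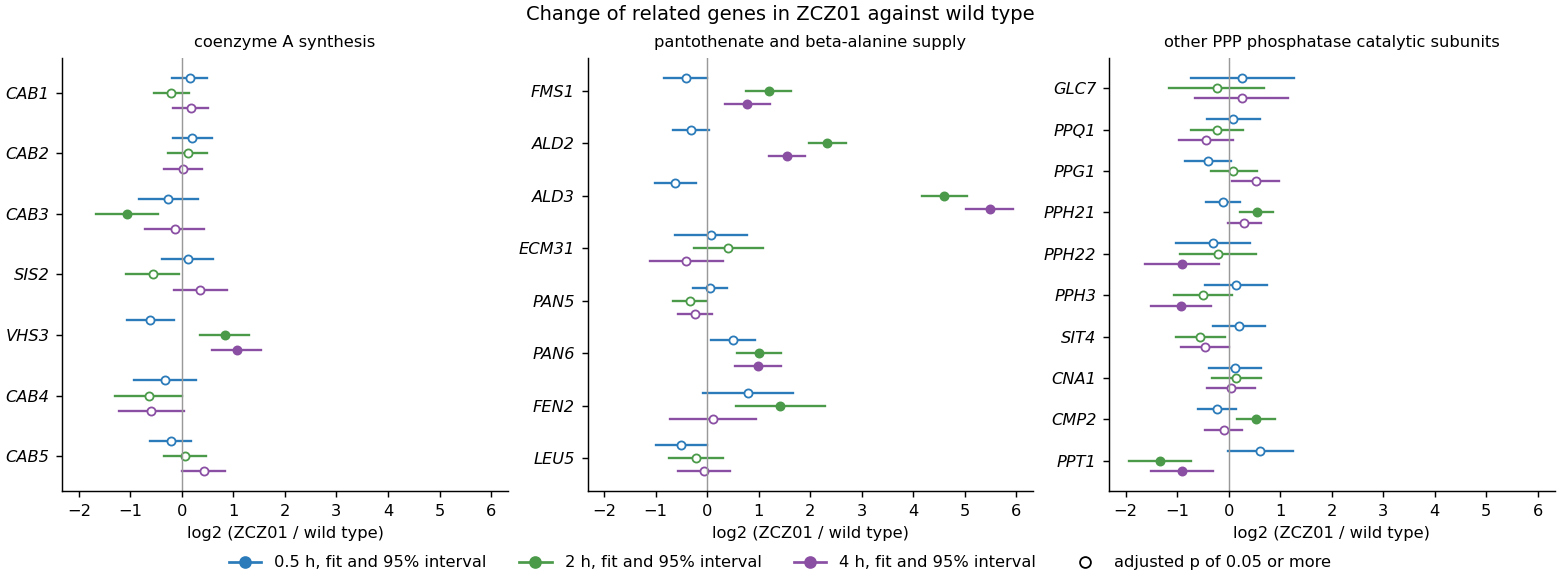
Log2 ratio of ZCZ01 to wild type (x axis) for genes of coenzyme A synthesis, of pantothenate and beta-alanine supply (listed with LEU5) and of the other PPP phosphatases, with points for the fitted change at each time, lines for its 95% interval and open points for an adjusted p of 0.05 or more. ALD3 reaches 5.48 at 4 h, whereas the genes of coenzyme A synthesis lie between -1.07 and 1.06.

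Genes with the most similar pattern were found for each of the 5 by Pearson's r over the 18 libraries, on log2 CPM centred within each experiment. The 18 values share 3 experiments and 2 strains, and each r is a description of these libraries. For PPZ1 they were FET4 (r = 0.868), EBS1 (0.862) and YAR023C (0.843), for PPZ2 PEP12 (0.88), FUN14 (0.861) and YNL092W (0.861), and for SIS2 YBL113C (0.88), HOT1 (0.862) and YPR174C (0.826). For VHS3 they were DCS2 (0.897), VID28 (0.885) and TPS1 (0.882), and for CAB3 CHL4 (0.894), ATP17 (0.885) and PRP6 (0.873). FET4, a low-affinity iron transporter gene, had log2 fold changes of 1.84, 1.57 and 1.06 at 0.5, 2 and 4 h, below those of PPZ1 at each time. TPS1 encodes trehalose phosphate synthase. DCS2, VID28 and TPS1 had log2 fold changes of -1.14, -0.29 and -0.84 at 0.5 h. At 2 h these were 1.70, 0.53 and 1.28. The 3 genes were picked for their likeness to VHS3 in these same libraries, so signs shared with VHS3 follow from that choice. Among the 5 genes themselves r was highest between PPZ2 and VHS3 (0.656) and lowest between PPZ1 and CAB3 (-0.604), and SIS2 and VHS3 had an r of 0.0943.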

How the data were processed

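The authors aligned QuantSeq reads (Bowtie2, per the labels) and deposited raw counts per gene region in a table for each experiment. The strand setting, counting tool and build are not given in the sources used here, but 5926 of the 5955 gene regions matched to R64 are the gene with 100 nt downstream, and sequences are from RefSeq R64. No column was left out. Genes kept by filterByExpr (5658) were scaled by TMM and tested in edgeR 4.0.16 (R 4.3.3) with the 9 pairs of libraries from the same experiment and time as blocks and a ZCZ01 effect for each time. Times were compared within strains with a block for each experiment. Calls needed a Benjamini-Hochberg adjusted p under 0.05 over all genes, separately for each comparison. The pairs come from the library names, and deviations within pairs correlated at 0.535 to 0.814. Mismatched pairs were not compared, and experiment 1 stood apart from the others, so these values do not test the pairing. Nothing in the labels says that replicates were separate cultures, so p values measure the spread between these libraries, and intervals assume the fitted model.

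The 5 members and the gene lists were chosen with earlier results of these data known. List genes are named where the adjusted p was under 0.05, with at least the 2 smallest in each list and time, and 3 genes of most similar pattern are named for each member. Alternatives used other blocks, each time alone, DESeq2 1.42.0, its size factors, total counts, other filters, each experiment left out, experiments 2 and 3 summed, and the times of the titles. The scripts were tested on simulated data. Other steps used Python 3.11.15, pandas 2.3.3, numpy 2.4.6, scipy 1.17.1, Biopython 1.88 and matplotlib 3.10.9.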

Additional observations from a re-analysis of the deposited data

Results flagged for a closer look

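The effect of ZCZ01 on PPZ2 and on VHS3 differed between 0.5 and 2 h by the test of the difference itself, by 0.92 and 1.44 on the log2 scale (edgeR's quasi-likelihood test, adjusted p = 0.0161 and 0.00305). In all 3 experiments the ratio of ZCZ01 to wild type was under 1 at 0.5 h and over 1 at 2 h for both genes, with median log2 ratios of -0.26 and 0.67 for PPZ2 and -0.57 and 0.76 for VHS3. At 0.5 h the ratios of PPZ2 were 0.835, 0.983 and 0.81, and the strains overlapped. By the same test, neither gene passed at 0.5 h (adjusted p = 0.609 for PPZ2 and 0.115 for VHS3). The share of all genes with such a change of sign was not computed. For VHS3 the sign was also opposite at 4 h in every experiment, with a median of 0.88, and this contrast of 0.5 with 4 h was not tested. The difference for PPZ2 did not pass without experiment 2, without experiment 3 or with experiments 2 and 3 summed, and that for VHS3 passed in all 3.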

How the results depend on the processing

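Counts below are of the 5 genes called. With the times of the sample titles, 0 were called at 0.5, 2 and 4 h and 0 for the difference between 0.5 and 2 h. There, log2 values changed sign for the strain effect on PPZ2 (0.32) and VHS3 (0.78) at 0.5 h and SIS2 (-0.33) at 4 h, for the difference between 0.5 and 2 h of PPZ1 (1.20), PPZ2 (-0.01) and VHS3 (-0.50), and for that between 2 and 4 h of PPZ1 (0.54). In the titles, all libraries of experiment 1 carry 0.5 h, those of experiment 2 carry 2 h and those of experiment 3 carry 4 h. If the library names hold, that fit took experiments as times and times as replicates. Leaving out 1 experiment gave 1 to 3, 1 to 5 and 2 to 2 at 0.5, 2 and 4 h, 1 to 4 and 0 to 2 for the differences from 0.5 to 2 h and from 2 to 4 h, 1 to 2, 0 to 2 and 0 to 2 in wild type (2 against 0.5 h, 4 against 2 h, 4 against 0.5 h), and 0 to 2, 0 to 4 and 1 to 3 in ZCZ01. The lowest counts came without experiment 2 or 3 and the highest without experiment 1, when only the closely alike experiments 2 and 3 remained. The log2 ratio of PPZ1 to inhibitor reads ran from 4.84 to 5.67, 4.01 to 6.08 and 1.37 to 3.29. Values that changed sign were CAB3 at 0.5 h (0.03 without experiment 3, range -0.76 to 0.03), SIS2 at 0.5 h (-0.01 without experiment 1, range -0.01 to 0.18) and PPZ1 from 0.5 to 2 h (-0.78 to 1.58). With experiments 2 and 3 summed, 1 was called for the difference from 0.5 to 2 h, 1 and 0 in wild type for 2 and 4 h against 0.5 h, and 0 and 0 in ZCZ01 for 2 against 0.5 h and 4 against 2 h. The fit with no replicate block called 0 and 0 in these ZCZ01 contrasts, and changed the other counts by no more than 1.5 times. DESeq2 called 0 for ZCZ01 at 2 against 0.5 h, no filter called 1 for 4 against 2 h, and total counts called 1 and 0 in wild type for 4 against 2 h and 4 against 0.5 h. For ZCZ01 at 2 against 0.5 h, total counts called VHS3 in place of CAB3. The difference for PPZ1 between 0.5 and 2 h was 0.16 with DESeq2, 0.09 with no replicate block, 0.07 with 1 block per experiment and 0.14 with total counts. Total counts moved the median of all genes for this difference to 0.13. PPZ1 passed at each time in all 12 alternatives that keep the library names. Few reads limit wild type PPZ1.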

Other observations

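Of 18 genes for regulatory subunits of Glc7, the PP1 catalytic subunit, 0 rose and 1 fell at 0.5 h, 6 rose and 1 fell at 2 h, and 5 rose and 2 fell at 4 h, with medians of -0.24, 0.44 and 0.10 on the log2 scale against 0.01, -0.05 and 0.00 over all genes. Of all genes 4.56%, 19.1% and 19.9% rose and 2.3%, 23.2% and 21.4% fell at these times. GIP1, a sporulation-specific partner, had log2 fold changes of 1.96 at 2 h (adjusted p = 3.5e-04) and 2.54 at 4 h (adjusted p = 7.2e-05) by edgeR's quasi-likelihood test. YPI1, which binds Glc7 and can inhibit it, stood at 0.80 (adjusted p = 0.0177) and 0.97 (adjusted p = 0.00531), PIG2 at 0.75 and 1.31, and SCD5 at 0.65 and 1.17. REG2, the paralog of the glucose repression subunit REG1, was lower at 2 h (-2.16, adjusted p = 3.8e-05) and 4 h (-2.11, adjusted p = 3.5e-05), and GAC1, which directs Glc7 to glycogen, at 4 h (-3.33, adjusted p = 2.8e-04). PIG1 (1.24) and SHP1 (0.61) rose at 2 h, GIP4 (0.79) rose at 4 h, and GIP2 (-1.23, adjusted p = 0.0121) fell at 0.5 h, when GIP1 had the next smallest adjusted p (-0.96, adjusted p = 0.188). With experiments 2 and 3 summed, 0 rose and 0 fell at 0.5 h, 1 rose and 1 fell at 2 h (GIP1 and REG2), and 5 rose and 2 fell at 4 h. GIP2 at 0.5 h had an adjusted p of 0.116 in that fit, and it did not pass without experiment 2 or experiment 3 either.

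Of 10 genes of processes known to be under Ppz1 control, 0 fell, and the number that rose was 1 at 0.5 h, 3 at 2 h and 2 at 4 h, against 4.56%, 19.1% and 19.9% of all genes, so the share at 4 h is about that of all genes. Of all genes 2.3%, 23.2% and 21.4% fell at these times. Without experiment 1, when only the closely alike experiments 2 and 3 remained, 6 rose and 1 fell at 2 h. At 2 h the count was 2 with experiments 2 and 3 summed and 1 without experiment 3, and at 0.5 h it was 0 with them summed and without experiment 2 or 3. At 4 h it was 1 without experiment 2. TRK1, the main potassium importer, had log2 fold changes of 0.67 at 2 h (adjusted p = 0.00361) and 1.20 at 4 h (adjusted p = 4.6e-05), and HAL5, a kinase that stabilizes such transporters, 0.81 (adjusted p = 0.00974) and 0.90 (adjusted p = 0.00585). UBI4, polyubiquitin, rose at 2 h (1.87, adjusted p = 3.4e-06) and stood at 0.01 at 4 h, and EFB1, a translation elongation factor gene, rose at 0.5 h (0.54, adjusted p = 0.0101), a call kept in 6 of 12 alternatives, with an adjusted p of 0.315 when experiments 2 and 3 were summed. TRK1 at 0.5 h was at 0.48 (adjusted p = 0.0962). ENA1, ENA2 and ENA5, sodium pump genes so alike that their reads may be split between them, passed at no time, with log2 fold changes of -0.67 to 0.31.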
